A study of Gallus gallus with 24 samples.

Results

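The genes described here are the 100 whose messenger RNA level differed most between libraries of the same incubation time in interdigital region 3 of the embryonic chicken hindlimb, out of 30108 genes in the deposited table. They were chosen by their spread. For each gene the pooled standard deviation (SD) of log2(CPM + 1) within the 4 times was computed, where CPM is counts per 1000000 reads. Of 5014 genes with a mean of 20 to 1000 CPM, 237 (4.73%) had an SD of at least 0.6. Of these, 121 were set aside because their mean differed by 0.4 log2 units or more between libraries with ENSGALG00010011988 at 50 CPM or more and the rest. The 100 widest of the remaining 116 are the members. The spread of the members and their difference of under 0.4 log2 units between the ENSGALG00010011988 levels therefore follow from the choice and are not results.

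The study sampled unmanipulated chicken embryos of Hamburger-Hamilton stages 30 to 31 at 4 times, namely 4, 6, 8 or 11 hours beyond day 7 of incubation, and made 6 libraries at each. The region between digits 3 and 4 was dissected from tissue kept in a storage reagent, and its total RNA was made into Lasy-Seq libraries, a multiplexed RNA-seq method. No agent, allele or operated control is given in the labels. The rule leaves out the 3 shallowest libraries (replicate 5 at 6 h, replicates 2 and 5 at 8 h, with 690847 to 894326 reads), so that 6, 5, 4 and 6 libraries remain at 4, 6, 8 and 11 h. Whether 2 libraries of a time stem from different embryos is not stated in the labels, and the spread described may be biological or technical.

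The interdigit is a wedge of limb mesenchyme under a sheet of ectoderm, crossed by vessels and bordered by the cartilage of neighbouring digits. Its mesenchyme dies as the digits are freed, under control of BMP ligands. A dissected piece can hold more or less of each neighbouring tissue, and bulk RNA records the sum. The sources used here pair none of the identifiers with a gene name, a position or a sequence (0 of 25635 genes in the RefSeq table carry an Ensembl identifier). The tissue label could therefore not be checked against defining markers, and the role of each member is not stated.

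The 21 libraries used held 1794673 to 8134730 reads. No 2 libraries of a time were copies of each other: compared over genes, their reads gave a chi-square of 9.52 or more for each degree of freedom. The library numbers in the labels form a lower range with 14 libraries, which include all at 4 h and 11 h, and an upper range with the other 7, of which 4 are at 6 h and 3 at 8 h. Of the 6 h libraries used, only replicate 1 lies in the lower range, and of those at 8 h only replicate 6.

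The SD of the members ran from 0.62 to 2.39 log2 units with a median of 0.68, while the median gene between 20 and 1000 CPM had 0.33. The last member had an SD of 0.6242 and the first gene outside the set 0.6219, so the border is not a step. Their mean level ran from 20.1 to 371.9 CPM. Of the 100 members 55 lay under 50 CPM, 41 between 50 and 100 CPM and 4 at 100 CPM or more. Of the 5014 genes 51.1% lay under 50 CPM. All 55 weak members are among the 68 outside a set of 32 described below, whose lowest mean was 69.8 CPM. The pooled share therefore describes neither part. Counting error was small beside the spread. The SD expected from the number of reads alone was 0.04 to 0.26 log2 units per member (median 0.13), and at most 0.263 of the member's own SD.

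The members held 1 large set of genes that varied together and many small groups. Co-variation was measured as Pearson's r between the deviations of 2 members from their time means over the 21 libraries. These libraries are shared by every pair, and r is given as a description. Members were chosen on these same deviations, so a contrast with the 5014 genes is not a test. The upper 5% of the 4950 member pairs began at an r of 0.986, against 0.452 for the pairs among the 5014 genes. An r of at least 0.5 was found in 16.1% of member pairs and 3.20% of pairs among all 5014 genes. Of the member pairs, 496 lie within a set of 32 genes described below, where the lowest r was 0.966. Among the 2278 pairs of the other 68 members, 7.73% reached an r of 0.5, the upper 5% began at an r of 0.595, and the median was 0.05. The middle of the distribution was close to 0 in both, with a median r of 0.08 for members and 0.02 for the 5014 genes. When members were joined by average linkage down to r = 0.5, groups of 35, 12, 5 and 5 members formed. A further 33 members fell into 14 groups of 2 to 4, and 10 joined no other. In the heat map of deviations the first group appears as one solid band and the later groups as narrower blocks, some of them marked by 1 or 2 libraries.

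**Figure D1:**
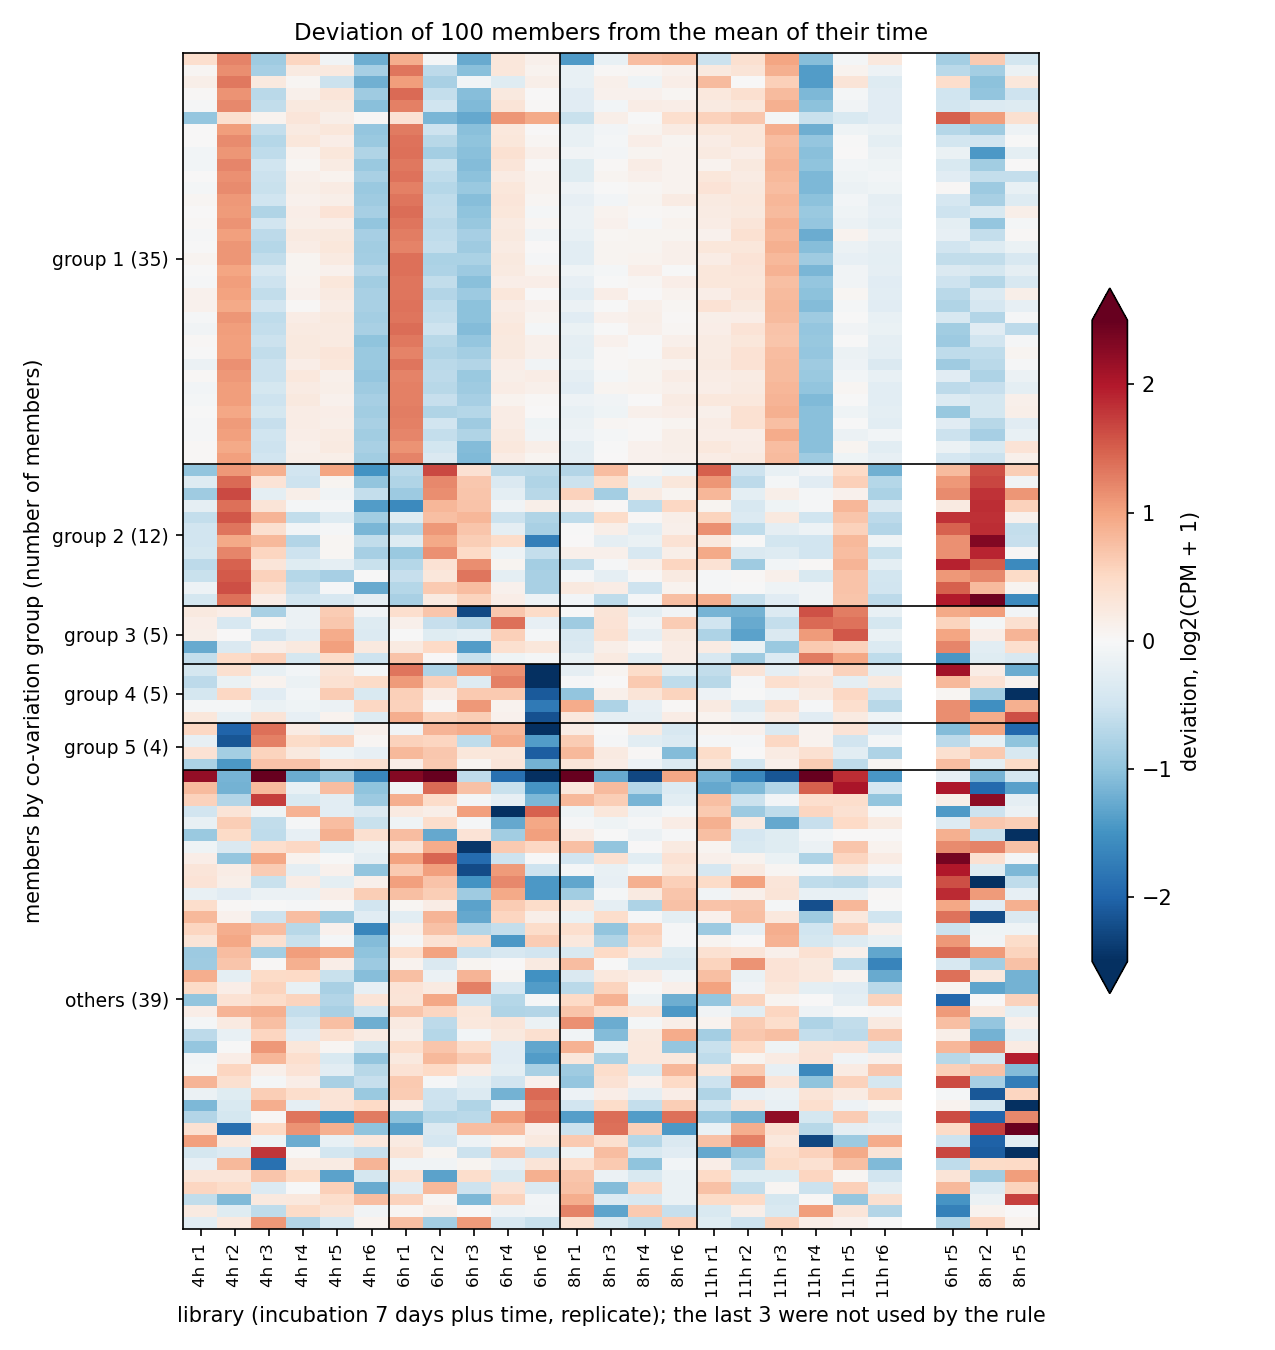
Deviation of each of the 100 members (rows, ordered by co-variation group) from the mean of its time in the 21 libraries used, on the log2(CPM + 1) scale (colour, saturated beyond 2.5 log2 units), with the 3 libraries the rule did not use at the right. Of the 35 members of group 1, 32 share one close pattern, with a mean deviation highest in replicate 1 at 6 h and lowest in replicate 4 at 11 h.

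The first group contains a set of 32 members that moved almost as a single gene. Each of them correlated with the mean of the group's other members at r = 0.986 to 0.997, whereas the 3 remaining members of the group reached 0.54 to 0.80. The set was defined after its values were seen. The 2 members closest to the group's mean were ENSGALG00010003294 and ENSGALG00010003420. ENSGALG00010003294 ran from 50.4 to 199.6 CPM at 4 h (median 99.4), and stood at 216.1, 53.8, 40.1, 104.2 and 88.0 CPM in replicates 1, 2, 3, 4 and 6 at 6 h. It stood at 56.6, 62.7, 68.3 and 75.7 CPM in replicates 1, 3, 4 and 6 at 8 h, and ran from 35.03 to 130.4 CPM at 11 h (median 77.3). The ranges of the 4 times overlap, with the 8 h libraries used by the rule inside those of every other time. ENSGALG00010003420 followed it closely, with 216.6, 55.0, 47.9, 101.3 and 97.4 CPM in the same libraries at 6 h.

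Summed over the 32 members, the set made up 0.109% to 0.699% of a library's reads, a 6.41-fold range. At 4 h the sum ran from 1599 to 6261 CPM (median 3137). At 6 h it was 6987, 1818, 1431, 3309 and 2898 CPM in replicates 1, 2, 3, 4 and 6, at 8 h 1818, 2122, 2222 and 2274 CPM in replicates 1, 3, 4 and 6, and at 11 h 1090 to 3980 CPM (median 2384). Replicate 1 at 6 h and replicate 2 at 4 h stand highest, and replicate 4 at 11 h and replicate 3 at 6 h lowest. The 4 libraries used at 8 h lie close together, with a median SD over the 32 members of 0.16 log2 units, against 0.69 at 4 h, 0.89 at 6 h and 0.61 at 11 h. Of the unused libraries at 8 h, replicate 2 had a sum of 1356 CPM, below those 4, and replicate 5 had 1941 CPM, within their range. The closeness at 8 h therefore holds for the libraries used. In bulk tissue, fewer cells of a type and less RNA per cell cannot be told apart.

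**Figure D2:**
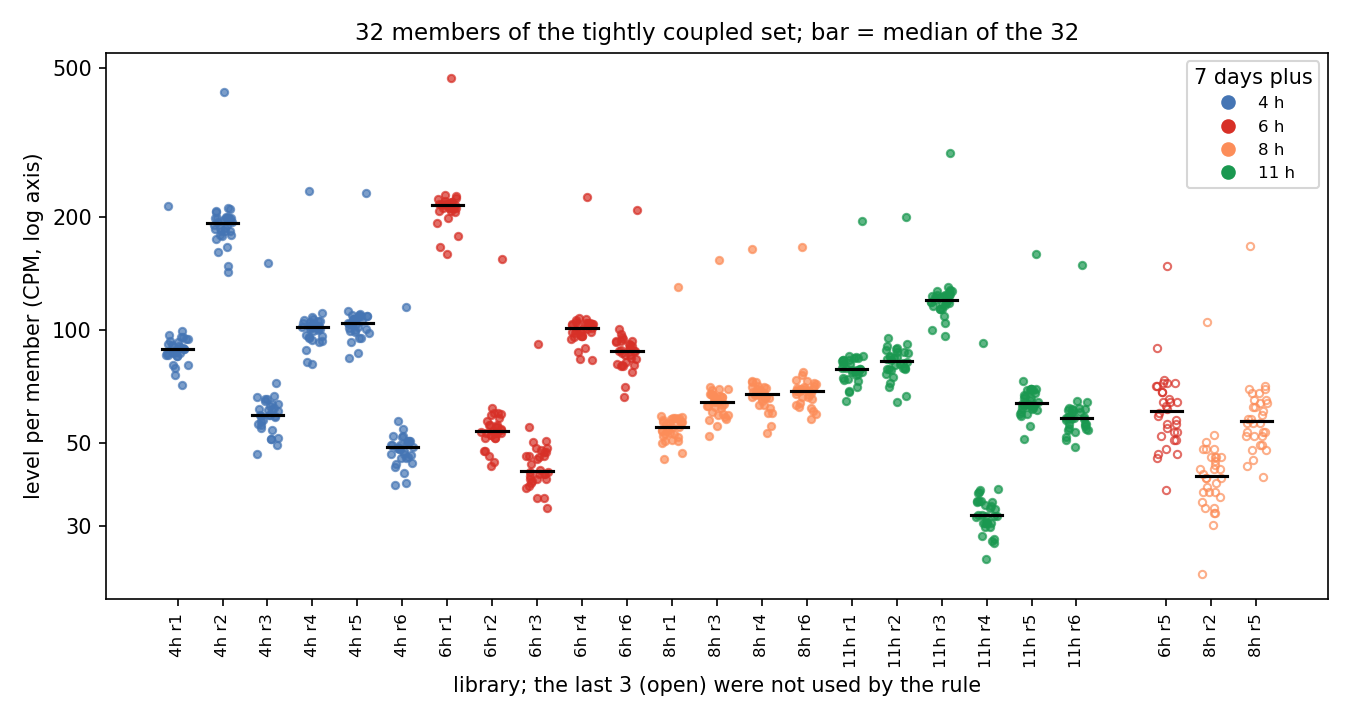
Level of each of the 32 tightly coupled members (points) in every library, in CPM on a log axis, coloured by time, with the median of the 32 as a bar; open points are the 3 libraries not used by the rule. The points of a library form a tight cloud that moves as a block between libraries, from a median of 32.04 CPM in replicate 4 at 11 h to 215.6 CPM in replicate 1 at 6 h, with 1 member above the rest throughout.

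Within each library these members also shared a level. Of the 32, 27 had a mean within 5% of the set's median of 85.6 CPM (83.8 to 88.3 CPM), 4 lay at 69.8 to 75.2 CPM and 1 at 201.8 CPM. The 27 even-level members received nearly equal numbers of reads. In replicate 1 at 6 h they had 1303 to 1508 reads each, with a mean of 1415, and in replicate 4 at 11 h 86 to 132 reads, with a mean of 115. The variance of the reads across the 27 genes divided by their mean, which is 1 when counting error is the only source of spread, was 0.39 to 1.79 in the 21 libraries (median 0.97). For 66 other genes with a mean in the same window of CPM, it was 9.71 to 21.6 (median 13.5). The 27 were picked for a shared pattern and a shared mean in these 21 libraries, and the 66 by their mean alone. A lower ratio for the 27 in the 21 libraries therefore follows in part from the choice. In the 3 libraries that took no part in the choice, the ratio was 0.78 to 1.26 for the 27 members and 7.44 to 14.1 for the other genes.

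**Figure D3:**
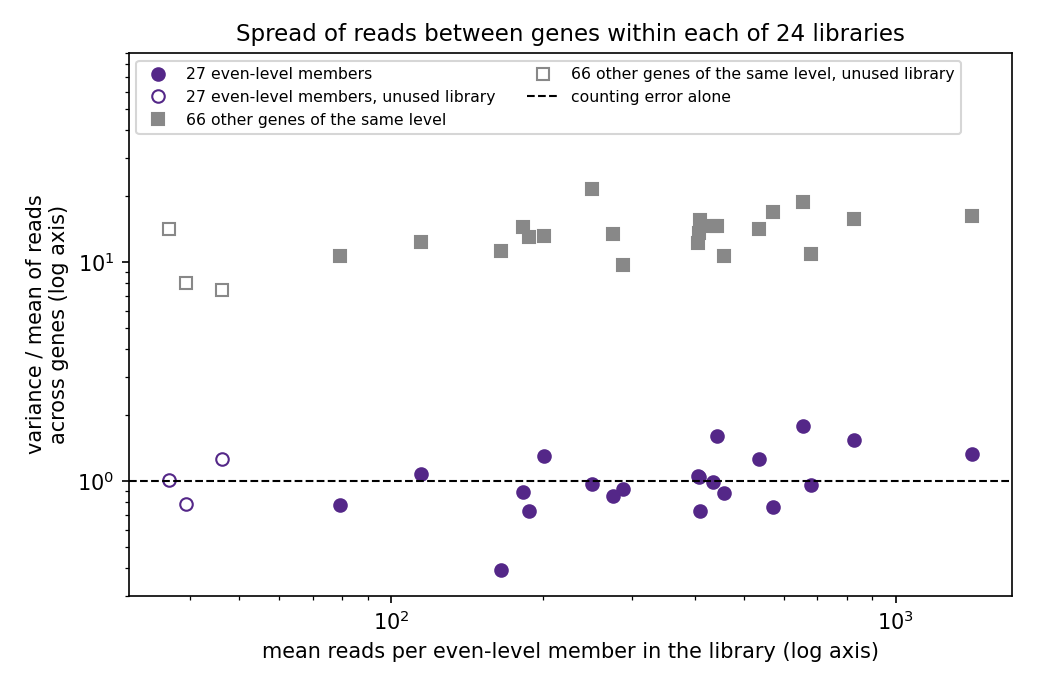
Variance divided by mean of the read numbers across 27 even-level members (circles) and across 66 other genes of the same mean level (squares), 1 point per library, against the mean reads per even-level member; both axes are logarithmic and open symbols are unused libraries. The circles scatter around the dashed line at 1, which counting error alone gives, and every square lies above 7.

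As background, reads from near-identical copies of a gene cannot be assigned to 1 copy, and some counting programs divide them or place them at random. Whether the members of the tightly coupled set share sequence was not tested, since no sequence for these identifiers was at hand, so their separate identity is uncertain. Counts over the members below are therefore given for the set and for the other 68 apart where they differ. Of the 32 identifiers, 30 carry running numbers between 3258 and 3644, a window that holds 387 rows of the table and 77 genes of 20 to 1000 CPM. Of these 77 genes, 30 belong to the set and 2 others had an r of 0.95 or more with its mean. The remaining 45, left after this removal by r, had a median r of 0.00 with the set's mean. That value describes these 45 genes and not the window as a whole. Among the 12395 genes that averaged 2 CPM or more, 2 non-members reached r = 0.95 with the set, both at the set's level (84.6 and 85.3 CPM). Of these, 1 missed membership by its SD and 1 by its difference between the ENSGALG00010011988 levels (-0.42 log2 units). That difference ran from -0.398 to -0.250 log2 units over the 32 members. All 32 were thus lower where ENSGALG00010011988 was at 50 CPM or more, on 1 side of the limit of 0.4.

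The size of the set's spread rests largely on a few libraries. Without replicate 1 at 6 h its median SD was 0.57, and 6 of the 32 genes still reached the SD of 0.6 that the rule asks for. The median r between pairs of the 32 genes was 0.98 or more when any single library was left out. Within the 14 libraries of the lower number range it was 0.99, and within the 7 of the upper range 0.97. The set was chosen by r over these same libraries, so these high values follow in part from the choice and are not a test.

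The second group holds 12 members with levels that differ widely, from 20.1 to 371.9 CPM, and a median pairwise r of 0.76. Its leading members were ENSGALG00010028684 (r = 0.95 with the others' mean) and ENSGALG00010027827 (r = 0.95). ENSGALG00010028684 ran from 142.2 to 804.1 CPM at 4 h (median 306.6) and stood at 279.1, 984.4, 751.7, 396.3 and 266.3 CPM in replicates 1, 2, 3, 4 and 6 at 6 h. It stood at 281.9, 315.8, 236.4 and 312.8 CPM in replicates 1, 3, 4 and 6 at 8 h, and ran from 159.7 to 587.7 CPM at 11 h (median 234.8). Replicate 2 at 4 h and replicates 2 and 3 at 6 h are the high libraries, and the ranges of the times overlap. For ENSGALG00010027827, replicate 2 at 4 h reached 175.1 CPM, while its 5 companions held 41.5 to 108.5 CPM.

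All 12 members of the second group lay above their time mean in replicate 2 at 4 h, replicates 2 and 3 at 6 h and replicate 5 at 11 h, and all 12 below it in replicates 1 and 6 at 4 h, replicate 1 at 6 h and replicate 6 at 11 h. The mean deviation was 1.38 log2 units in replicate 2 at 4 h and -0.83 in replicate 6 at 4 h. The same measure was taken in the libraries the rule did not use. It rests on CPM without TMM scaling, and the TMM factors there were 1.22, 1.14 and 1.13. No share of all genes above the time mean in these libraries is given here, for this group or the later ones. Members of a group vary together, so their counts are not separate observations. In replicate 5 at 6 h and in replicate 2 at 8 h, 12 of 12 members lay above the time mean, by 1.28 and 1.73 log2 units on average, and in replicate 5 at 8 h 7 of 12 did, with a mean of -0.12. Depth moved partly with the group: its 3 highest libraries among those used held 1794673 to 3397637 reads, but replicate 6 at 6 h, with 2114389 reads, lay at -0.71. Among the unused libraries, replicate 5 at 6 h held 747982 reads and replicate 2 at 8 h 894326. Replicate 5 at 8 h, at -0.12, held 690847. The part of depth in this pattern, and that of scaling and of tissue make-up, was not tested. Leaving out any single library kept the median pairwise r between 0.70 and 0.79. It was 0.83 within the lower number range and 0.70 within the upper. The group was formed by r over these same libraries, so these values are a description.

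**Figure D4:**
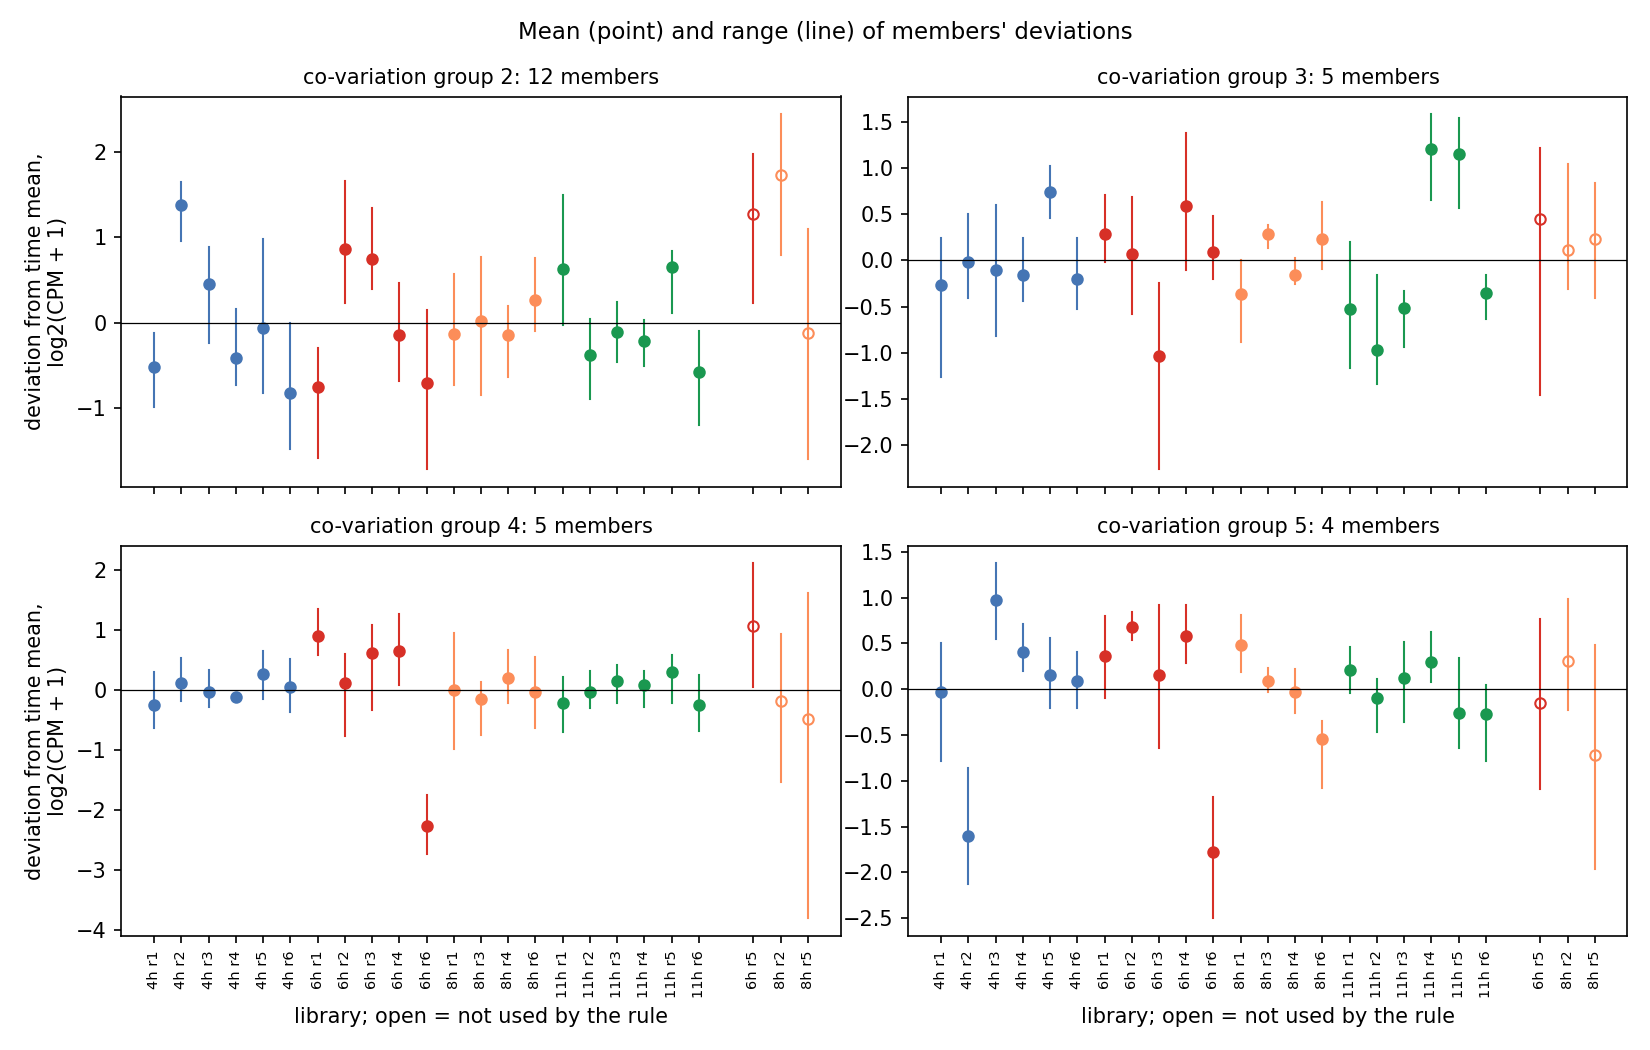
Mean (point) and range (vertical line) of the members' deviations from their time mean in co-variation groups 2 to 5, on the log2(CPM + 1) scale, for each library, coloured by time; open points are libraries not used by the rule. Group 2 is high in several libraries of different times, group 3 in replicates 4 and 5 at 11 h, replicate 5 at 4 h and replicate 4 at 6 h, and groups 4 and 5 are marked by low values in replicate 6 at 6 h (-2.27 and -1.78).

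The third group holds 5 members of 23.4 to 251.4 CPM and was high in single libraries of several times. Some of its members also carry running numbers between 3258 and 3644, the window of the tightly coupled set. Its geometric mean was 120.1 CPM in replicate 4 and 115.4 CPM in replicate 5 at 11 h, while the 4 remaining 11 h libraries held 25.9 to 40.2 CPM. All 5 members also lay above the time mean in replicate 5 at 4 h, with a mean deviation of 0.74 log2 units, and 4 of 5 did in replicate 4 at 6 h, with 0.59. In the unused libraries its mean deviation was 0.12 to 0.45 log2 units, smaller than in those replicates at 11 h. Groups 4 and 5 rest on low values in 1 or 2 libraries. In replicate 6 at 6 h the 5 members of group 4 had a geometric mean of 3.11 CPM, while the 4 remaining 6 h libraries held 20.5 to 36.0 CPM. They held 2 to 15 reads there, where 48.5 to 112.4 would correspond to the mean level of the other 6 h libraries. The 4 members of group 5 held 4 to 19 reads in the same library, where 45.0 to 57.3 would correspond, and were also low in replicate 2 at 4 h, with a mean deviation of -1.60. In the unused libraries, 5 of 5 members of group 4 lay above the time mean in replicate 5 at 6 h, by 1.05 log2 units on average. The count was 3 of 5 in replicate 2 at 8 h and 3 of 5 in replicate 5 at 8 h. Of the 4 members of group 5, 2, 2 and 1 lay above the time mean in these libraries, in the same order.

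The member with the widest spread was ENSGALG00010023911, singled out after its values were seen, with an SD of 2.39 log2 units, while the next widest had 1.26. It lay at 13.0 CPM or more in 8 libraries and at 6.69 CPM or less in 13. At 11 h it stood at 134.7 CPM in replicate 4 and 20.4 CPM in replicate 5, against 0.36 to 1.65 CPM in the other libraries. At 6 h it stood at 57.7 and 112.2 CPM in replicates 1 and 2, against 0.47 to 6.69 CPM in the other 3. Each time thus held libraries of high and low level. Of the 8 upper libraries 4 had ENSGALG00010011988 at 50 CPM or more, as had 10 of all 21. The unused libraries held 2 to 7 reads of it, too few to place them.

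Over all 100 members, single libraries held about the same share of a member's spread as of other genes' spread. The library with the largest deviation held 24.2% of a member's squared deviations in the median over the 100 members, against 23.2% for the 5014 genes. This median counts the profile of the tightly coupled set 32 times, and a value for the 68 others apart is not given here. In 7 members, all among the 68 outside the set, it held over 50%, each time with a low value, in replicate 6, 3 or 4 at 6 h. The share of the 5014 genes above 50% is not given here, so this count is a description. Among the 68 members outside the tightly coupled set, the largest deviation was negative in 46 (67.6%), against 60.4% of the 5014 genes. Replicate 6 at 6 h was the most deviant library for 15 of the 68 (22.1%, against 11.4% of the 5014 genes), with a low value in 13, and replicate 3 at 6 h for 9 (13.2%, against 10.2%), all 9 low. These are the 2 shallowest of the libraries used, with 2114389 and 1794673 reads.

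The tightly coupled set and the remaining members differed in their leading library and had others in common. Replicate 1 at 6 h held 22.9% of the set's squared deviations, against 4.41% for the 68 other members and 4.40% for the 5014 genes. It is the only 6 h library used in the lower number range, so its deviation cannot be told apart from a difference between the ranges. Replicate 6 at 6 h held 0.101% for the set, 11.8% for the 68 other members and 8.07% for the 5014 genes. The next 3 libraries were the same for both, in another order. Replicate 2 at 4 h held 15.5% for the set, 7.36% for the 68 others and 6.85% for the 5014 genes. Replicate 4 at 11 h held 14.5%, 7.57% and 4.64%, and replicate 3 at 6 h 12.4%, 7.40% and 6.55% for these 3 sets of genes. The first principal component held 30.8% of the variance of the members' deviations, 24.2% for the 68 members outside the set and 25.3% for the 5014 genes, so that the higher share of the members rests on counting the set's profile 32 times.

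**Figure D5:**
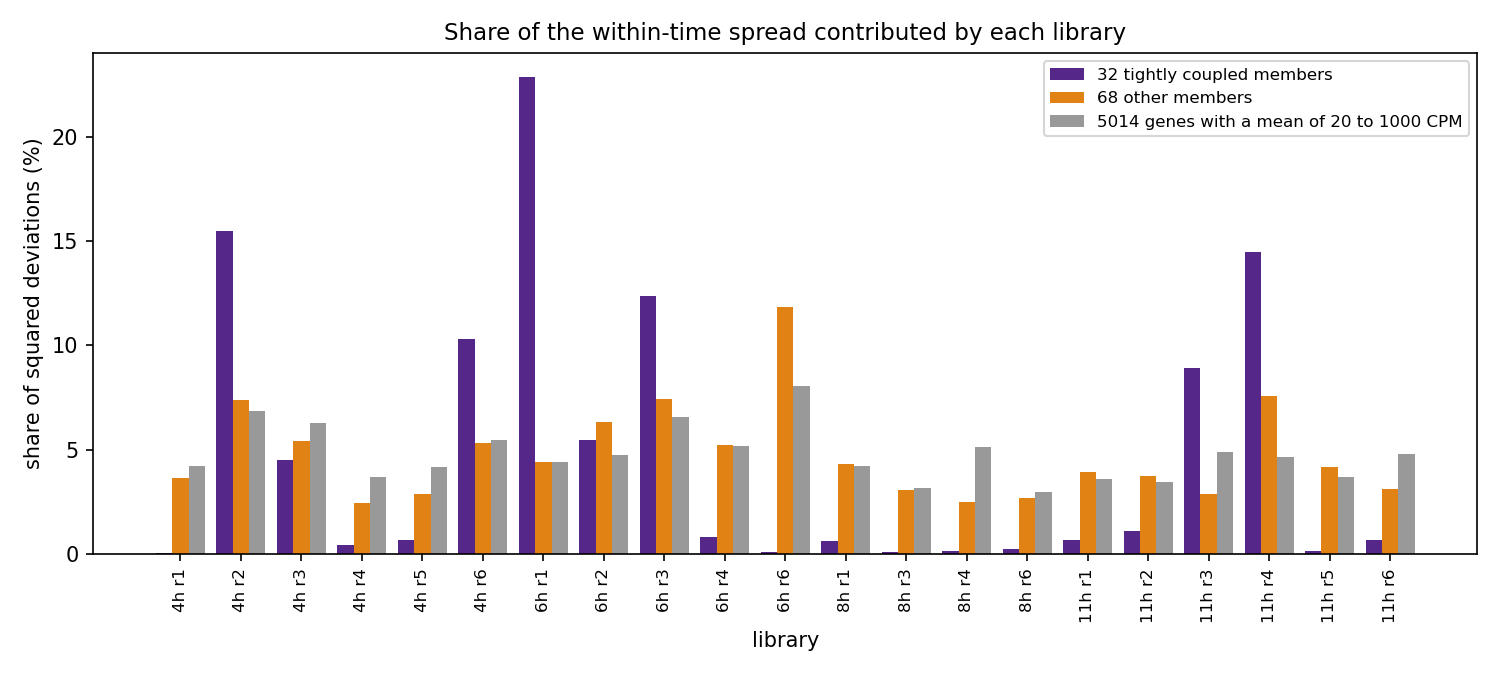
Share of the summed squared deviations from the time mean that each of the 21 libraries contributed, in percent, for the 32 tightly coupled members, the 68 other members and the 5014 genes with a mean of 20 to 1000 CPM. Replicate 1 at 6 h leads for the 32 members (22.9%) and replicate 6 at 6 h for the 68 others (11.8%).

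The members' instability was measured again in the 3 libraries that the rule had not used. Members were compared with the median gene of 20 to 1000 CPM in their absolute deviation from the mean of their time. In replicate 5 at 6 h 74 of 100 members lay further out than the median gene, with a median deviation of 0.76 log2 units, against 0.43 for the 5014 genes. In replicate 2 at 8 h 74 of 100 did, with 0.73 against 0.43. In replicate 5 at 8 h 46 of 100 did, with 0.40 against 0.42. The members outside the tightly coupled set were further out in all 3 libraries, in 56, 49 and 43 of 68. The set itself lay below its time mean for 31, 32 and 23 of 32 genes, with a median deviation of -0.47, -0.60 and -0.14 log2 units. Its genes move almost as a single gene, so each count is close to 1 observation. The counts out of 100 mix these 2 unlike parts. The share of the 5014 genes below the time mean in these libraries is not given here. These libraries hold fewer than 1000000 reads, so that counting error is a larger part of each deviation than in the 21 others. The 68 members also include all 55 with a mean under 50 CPM, while the median mean of the 5014 genes was 49.1 CPM. Weaker genes carry more counting error at this depth, and its part in the excess of the 68 was not tested.

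The differences between incubation times were not used by the rule, but the SD within times was, and it is the error term of a test over time. A wide SD makes a call less likely, so that few calls among members follow in part from the choice and are not read as a sign of stable levels over time. In a fit of all 13891 genes that passed a filter on low values, which included all 100 members, 0 members passed an adjusted p of 0.05 for any difference between the 4 times (limma). Over all genes 2 did, or 0.0144%; limma-voom called 0 members and 0.0216% of all genes. At an unadjusted p under 0.05 there were 8 members of 100, against 6.99% of all genes. None of the 8 belonged to the tightly coupled set, so they are 8 of the 68 others. For 11 h against 4 h, which lies wholly within the lower library numbers, 0 members and 0% of all genes passed with limma or limma-voom, and 5 members of 100 had an unadjusted p under 0.05, against 6.37% of all genes. The 3 steps between neighbouring times had 0 calls among members and 0% among all genes with either tool. At an unadjusted p under 0.05 (limma), there were 7 members of 100 in the step to 6 h, against 7.03% of all genes. There were 7 in the step to 8 h, against 6.58%, and 1 in the step to 11 h, against 4.04%. The tightly coupled set had 0 such members for 11 h against 4 h and in each step. These counts of 5, 7, 7 and 1 thus all fall among the 68 others, and their shares of 100 count the set's profile 32 times. The steps to 6 h and to 11 h cross the library number ranges. With the range as a term in the fit, the 3 steps, in order of time, had 2, 6 and 3 members at an unadjusted p under 0.05 (limma), against 2.88%, 6.23% and 3.71% of all genes, and 0 members at an adjusted p under 0.05.

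The differences of the tightly coupled set between 11 h and 4 h ran from -0.44 to -0.19 log2 units over its 32 members, and the smallest adjusted p among them was 0.88 (limma). For ENSGALG00010003294 the difference was -0.30 ± 0.31 (SE, adjusted p = 0.92, limma). The second group's leading member ENSGALG00010028684 differed by -0.19 ± 0.30 (SE, adjusted p = 0.96, limma), and ENSGALG00010023911 by 0.15 ± 1.07 (SE, adjusted p = 1.00, limma).

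The member nearest to a call was ENSGALG00010028554, singled out after its values were seen and already known from earlier results of these data. It ran from 51.4 to 153.7 CPM at 11 h (median 112.2), against 15.8 to 41.6 CPM at 4 h (median 19.6), without overlap. Groups did not overlap in 1 of 100 members, or 1 of the 68 outside the tightly coupled set, against 0.758% of the 5014 genes. The difference was 2.15 ± 0.42 log2 units (SE, adjusted p = 0.078, limma). Its place among the members rests on 6 h, where it stood at 48.0, 45.5, 84.1, 4.62 and 115.4 CPM in replicates 1, 2, 3, 4 and 6, and replicate 4 held 55.1% of its squared deviations. Without that library the difference between 11 h and 4 h was 2.15 ± 0.26 log2 units (SE, adjusted p = 7.9e-05, limma). That library is in neither group and was singled out by this member's own deviation. Leaving it out narrows only the error, so this p is a description and not a test. ENSGALG00010028554 also passed without replicate 6 at 6 h (adjusted p = 0.038, limma) or replicate 4 at 4 h (adjusted p = 0.037, limma). With all 24 libraries the adjusted p was 0.49 (limma), and limma-voom with the 21 libraries gave an adjusted p of 0.17. In all, 4 of 31 alternatives passed.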

How the data were processed

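Messenger RNA of interdigital region 3 was measured in 24 libraries, 6 per time. The authors deposited 1 table of natural log values, ln(CPM + 1), since exp(value) - 1 summed to 1000000 in each column; the CPM were whole multiples of 1 read in 99.9995% of values above 0 (within 0.01 read). Salmon, BWA 0.7.17-r1188 and fastp 0.21.0 are listed, per the submitters' processing notes; not given in the sources used here are genome build, annotation and the treatment of reads that fit several genes. No other column was present.

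Members were found on log2(CPM + 1) without further scaling. For tests over time, CPM were divided by TMM factors (30% of M and 5% of A trimmed) from the recovered reads, and log2(CPM + 1), with a pseudocount of 1 that understates changes of weak genes, was fitted with limma 3.58.1 (R 4.3.3) with an intensity trend, over the 21 libraries, with Benjamini-Hochberg adjustment over all genes tested. Genes were tested with the equivalent of 10 reads, at the median depth, in 6 libraries and at least 15 reads in all. Deviations are from the time means of the 21 libraries, with Python 3.11.15 and scipy 1.17.1. The script was tested on simulated data.

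The members, and the named ENSGALG00010028554, were chosen with earlier results of these data known. Named by rule were the 2 members that correlated best with their group in each of the 2 largest groups; 2 more were singled out after their values were seen. The cell type marker lists could not be evaluated, as identifiers are not paired with names. Counting intervals cover counting error only. Alternatives were other scaling, pseudocounts, filters, libraries, a library number term, a replicate block and limma-voom.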

Additional observations from a re-analysis of the deposited data

Results flagged for a closer look

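A single library far from its companions was looked for in 48 cases (reads per library, the 6 named identifiers, the tightly coupled set and groups 2 to 5, each by time). It was found in 5, and chance alone flags about 1 in 20. Because members were chosen for a wide spread within times, such values are more frequent here by construction. For ENSGALG00010003294, replicate 2 at 4 h reached 199.6 CPM, while its companions held 50.4 to 104.6 CPM. For ENSGALG00010003420, replicate 1 at 8 h stood at 52.3 CPM and the others at 67.2 to 69.4 CPM. For ENSGALG00010027827, replicate 4 at 8 h stood at 44.9 CPM and the others at 65.4 to 66.9 CPM. ENSGALG00010023911 reached 134.7 CPM in replicate 4 at 11 h and 0.36 to 20.4 CPM in the others. Group 3 had a geometric mean of 116.3 CPM in replicate 5 at 4 h and 57.3 to 68.03 CPM in the others.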

How the results depend on the processing

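Which genes the rule picks depended on the libraries, through the SD and through the limit on the difference between the ENSGALG00010011988 levels. The rule picked 85 of the 100 members again on TMM-scaled CPM, 64 with a pseudocount of 5 and 31 with all 24 libraries, where 0 of the 32 tightly coupled members stayed among the top 100, 29 of them still having an SD of at least 0.6; leaving out 1 library kept 63 to 92, the fewest without replicate 1 at 6 h (63) and replicate 3 at 6 h (65). The largest co-variation group held 34 to 36 members when 1 library was left out, was within 1.5 times of 35 under the other planned settings, and had 12, the second group, with the tightly coupled set counted as 1 member (chosen after seeing the data). In replicate 5 at 6 h, 86 instead of 74 members lay beyond the median gene on TMM-scaled CPM.

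For any difference among the times, 2 genes passed in the fit described and 0 with all 24 libraries, library size only, median-ratio factors, no filter or the replicate block, and 1 with the library number term; with 1 library left out 0 to 5 did. For 11 h against 4 h, where 0 passed, 2 did with a pseudocount of 5, 1 with the replicate block and 1 with the library number term, and 0 to 10 with 1 library left out, the most without replicate 4 at 4 h; in the 3 steps between neighbouring times, in order, 0 to 1, 0 to 2 and 0 to 2 did. The cause was not tested. Among members, ENSGALG00010028554 alone was ever called, in 4 of 31 alternatives for 11 h against 4 h (a pseudocount of 5 and without replicate 4 at 4 h, replicate 4 at 6 h or replicate 6 at 6 h), with a log2 difference of 1.97 to 2.33 and an adjusted p of 7.9e-05 to 0.49 (limma), and in 1 of 31 for any difference. The sign for ENSGALG00010028684 reversed to 0.050 without replicate 2 at 4 h (-0.41 to 0.050 over the left-out libraries), and that for ENSGALG00010023911 to -0.37 with limma-voom (chosen after seeing the data) and in 6 of 21 left-out libraries (-0.77 to 0.67). It is not known whether the replicate numbers pair the libraries. Of 28 pairs with the same number, 7 correlated above 0.1, and 4 of 21 libraries correlated best with one of their own number. These counts cannot decide it, since the share for pairs with different numbers is not given here. Several libraries of the same replicate number at 4 h and 11 h carry neighbouring library numbers, and shared handling was not tested.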
